A study of Homo sapiens and Mus musculus with 20 samples.

Results

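The untreated SW480 libraries of the sodium propionate (NaPr) experiment and of the sodium butyrate (NaBu) experiment were compared with each other. SW480 is an established human colorectal adenocarcinoma line. ATAC-seq reads out exposed DNA, which the Tn5 transposase cuts and tags for sequencing. There were 3 untreated libraries in each experiment, chosen by their labels, so that the members were 6 of the 20 libraries of the series and 6 of its 12 SW480 libraries. The others were treated SW480 cells (10 mM NaPr or 1 mM NaBu) and a mouse colon line. Both untreated groups carried a dose of 0 mM, the same medium and serum, the same 12 to 16 h treatment window and the same Omni-ATAC protocol with 50000 viable cells per reaction. They differed in the date on the labels, which was in October for the NaPr experiment and in March of a later year for the NaBu experiment. The culture, its passage, the library preparation and the sequencing run therefore cannot be told apart between the 2 groups, which are called here the NaPr controls and the NaBu controls. All 6 came from 1 cell line, and the labels do not say whether replicates were separate cultures, so every p-value measures the spread between these libraries only. These were bulk libraries, in which fewer cells with an open site and a less open site in every cell cannot be told apart.

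Open chromatin marks promoters, enhancers and insulators. Promoters of genes that every cell uses are open in nearly all cell types, whereas distal enhancers are more specific to a lineage and hold the binding sites of the factors that define it. In the intestinal epithelium these factors include CDX2, HNF4A, the FOXA proteins, KLF5 and the TCF/LEF partners of beta-catenin, the effector of WNT signaling that most colorectal tumours activate.

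Merging the intervals of the 6 peak lists gave 205262 regions. All 6 lists had a peak in 56072 of these. Within each library the regions were ordered by their highest −log10 p, and each region was given a rank between 0 and 100. The strongest region of a library has 100, and 0 means that the region was not among its 99909 strongest. A rank is a place in an order and not a level, so a change of rank has no fold. The promoter rank of a protein-coding gene is the highest rank of any region within 1 kb of one of its starts. Differences are always given as NaBu controls minus NaPr controls, and values of single libraries are listed as replicates 1, 2 and 3.

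The sequences that follow are single examples for the results described further on. The first 5 are 200-bp windows (hg38, plus strand) centred on the summit of a distal region, one over 1 kb from every protein-coding start. The first 4 are the regions with the largest called change among those that held the named motif and lay outside annotated UTRs. Their groups also had to be without overlap, and 3 chromosomes (8, 18 and Y) were left out. The last is the region with the largest gain of all. Capitals mark the motif, which was searched on both strands.
HNF4, higher in the NaBu controls, chr19:33804311-33804510, intron of KCTD15: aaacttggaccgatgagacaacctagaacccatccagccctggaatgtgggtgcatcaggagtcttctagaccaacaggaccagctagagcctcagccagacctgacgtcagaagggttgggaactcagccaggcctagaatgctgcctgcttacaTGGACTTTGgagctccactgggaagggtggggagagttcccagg
FOX, higher in the NaBu controls, chr4:62806958-62807157, between genes: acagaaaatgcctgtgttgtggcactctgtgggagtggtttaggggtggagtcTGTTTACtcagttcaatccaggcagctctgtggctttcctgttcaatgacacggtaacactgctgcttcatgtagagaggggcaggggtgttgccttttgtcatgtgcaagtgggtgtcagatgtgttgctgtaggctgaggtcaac
TEAD, lower in the NaBu controls, chr4:3827603-3827802, between genes: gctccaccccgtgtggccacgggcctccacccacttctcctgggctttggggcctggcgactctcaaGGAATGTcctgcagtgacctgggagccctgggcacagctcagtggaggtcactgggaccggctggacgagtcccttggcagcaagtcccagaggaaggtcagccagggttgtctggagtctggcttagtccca
NF-kB, lower in the NaBu controls, chr9:133793118-133793317, intron of VAV2: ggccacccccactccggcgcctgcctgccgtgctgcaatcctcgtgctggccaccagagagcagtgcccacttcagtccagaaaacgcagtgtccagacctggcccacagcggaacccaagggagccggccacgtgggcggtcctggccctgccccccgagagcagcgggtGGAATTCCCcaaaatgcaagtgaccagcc
AP-1, higher in the NaBu controls, chr7:40644967-40645166, intron of SUGCT: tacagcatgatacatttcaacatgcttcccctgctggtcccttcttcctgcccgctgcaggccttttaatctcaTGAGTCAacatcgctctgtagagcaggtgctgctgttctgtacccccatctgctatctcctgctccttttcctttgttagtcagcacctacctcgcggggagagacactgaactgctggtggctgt

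The 3 promoters below (RefSeq, GRCh38.p14, each on the strand of its gene) belong to genes that stand for a shared, a lower and a lost start in the results. KLF5 was near the top of every library, CDX2 ranked lower in the NaBu controls, and SPARC had a rank only in the NaPr controls. Capitals mark a CDX motif (TTTATNG, held by 8.03% of 15307 such promoters) in KLF5 and CDX2 and a TEAD motif (ACATTCC, held by 2.50%) in SPARC. A match is a description of the letters and not evidence of binding.
KLF5, chr13:73054726-73055025, plus strand: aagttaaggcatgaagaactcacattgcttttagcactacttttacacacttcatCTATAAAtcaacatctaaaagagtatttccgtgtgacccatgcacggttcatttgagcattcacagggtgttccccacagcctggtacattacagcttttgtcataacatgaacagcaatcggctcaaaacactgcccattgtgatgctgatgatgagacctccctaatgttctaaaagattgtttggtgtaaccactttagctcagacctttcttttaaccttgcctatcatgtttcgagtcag
CDX2, chr13:27969266-27969565, minus strand: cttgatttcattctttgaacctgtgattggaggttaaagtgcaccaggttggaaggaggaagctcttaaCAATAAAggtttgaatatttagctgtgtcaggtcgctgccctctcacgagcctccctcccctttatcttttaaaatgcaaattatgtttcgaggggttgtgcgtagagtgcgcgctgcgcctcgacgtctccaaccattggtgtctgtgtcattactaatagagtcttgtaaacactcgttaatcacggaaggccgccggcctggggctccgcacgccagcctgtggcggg
SPARC, chr5:151686866-151687165, minus strand: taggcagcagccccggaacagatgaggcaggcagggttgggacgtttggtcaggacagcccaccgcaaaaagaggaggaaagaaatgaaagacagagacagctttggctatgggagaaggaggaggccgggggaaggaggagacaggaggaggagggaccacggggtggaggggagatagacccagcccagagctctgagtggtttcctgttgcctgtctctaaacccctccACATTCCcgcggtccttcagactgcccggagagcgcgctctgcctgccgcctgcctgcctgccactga

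By −log10 p, all 6 libraries shared the top of the promoter order. The 15 strongest regions near a protein-coding start lay at 99.9 or above in every library. They included the starts of TMEM60 (chr7:77797707-77799761), of TP53I3, a p53-induced oxidoreductase (chr2:24083738-24084925), of HBP1, a transcriptional repressor, of ETNK1, an ethanolamine kinase, of FIS1, a mitochondrial fission protein, and of UBE2C, a ubiquitin-conjugating enzyme of mitosis (chr20:45811722-45813376). A further 8 overlapped starts of RINT1, POLM, ARHGEF5, INTS13, SRI, AKAP13, AGFG2 and an unnamed gene beside RASA4. The start beside RASA4 has 3 near-identical copies elsewhere in hg38 and that of ARHGEF5 has 2, so reads could be split between copies. None of the 15 was called between the controls by limma. They were chosen by their mean rank over the same 6 libraries and lie just under the ceiling of 100, which largely fixes this outcome. Their ranks by fold enrichment went down to 73.3, and 6 were called by that measure. Of the 15, 10 lay on chromosome 7, which held 5.00% of the 15993 regions near a start with a peak in all 6 libraries. The local background of chromosome 7, relative to the whole library, was 1.06, 1.08 and 1.12 in the NaPr controls and 1.13, 1.17 and 1.17 in the NaBu controls. Its part in the position of these promoters was not tested.

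The strongest distal regions held many repeated sequences. The 15 strongest by −log10 p lay at 99.57 or above in every library, and 8 of them were on chromosome 7, which held 6.37% of the 40079 distal regions with a peak in all 6. By fold enrichment their ranks went down to 35.7, and 5 of the 15 were called, with differences that reached −29.4 in a region on chromosome 21, −22.4 at chr1:633861-634235 and −13.2 near KMT2E. The first and the seventh, at chr1:633861-634235 and chr1:629270-630057, were nuclear copies of mitochondrial genes and were 98.7% and 99.1% identical to the mitochondrial genome. Another 4 had 2 or 3 near-identical copies in hg38, among them regions at NCF1C and RASA4DP. Single-copy loci in this group included an intron of FOXK1, a forkhead factor (chr7:4744379-4745551), and an intron of the noncoding LINC02964 (chr8:125655072-125656345), which lay 221526 bp from the start of TRIB1. The LINC02964 region ranked 99.97, 99.86 and 99.89 in the NaPr controls and at least 99.99 in all 3 NaBu controls. None of these 15 was called by −log10 p, an outcome that their choice by mean rank and the ceiling of 100 largely fix.

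The order was otherwise much more alike within a control group than between the groups. Over the 125956 regions tested, Pearson's r between the ranks of 2 untreated libraries of the same experiment was 0.911 to 0.956 (6 pairs) and between untreated libraries of different experiments it was 0.573 to 0.609 (9 pairs). An untreated library correlated better with the treated libraries of its own experiment, at 0.834 to 0.908 (18 pairs), than with the untreated libraries of the other. These correlations are across regions, which are not independent replicates, and the points share chromosome, base composition and the peak caller. The Jaccard index of covered bases, the share of bases that 2 lists have in common, was 0.603 to 0.773 within groups and 0.46 to 0.5 between them. The difference of the means was 0.222 (one-sided exact permutation test, p = 0.1, the smallest that 3 against 3 libraries can give).

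**Figure D1:**
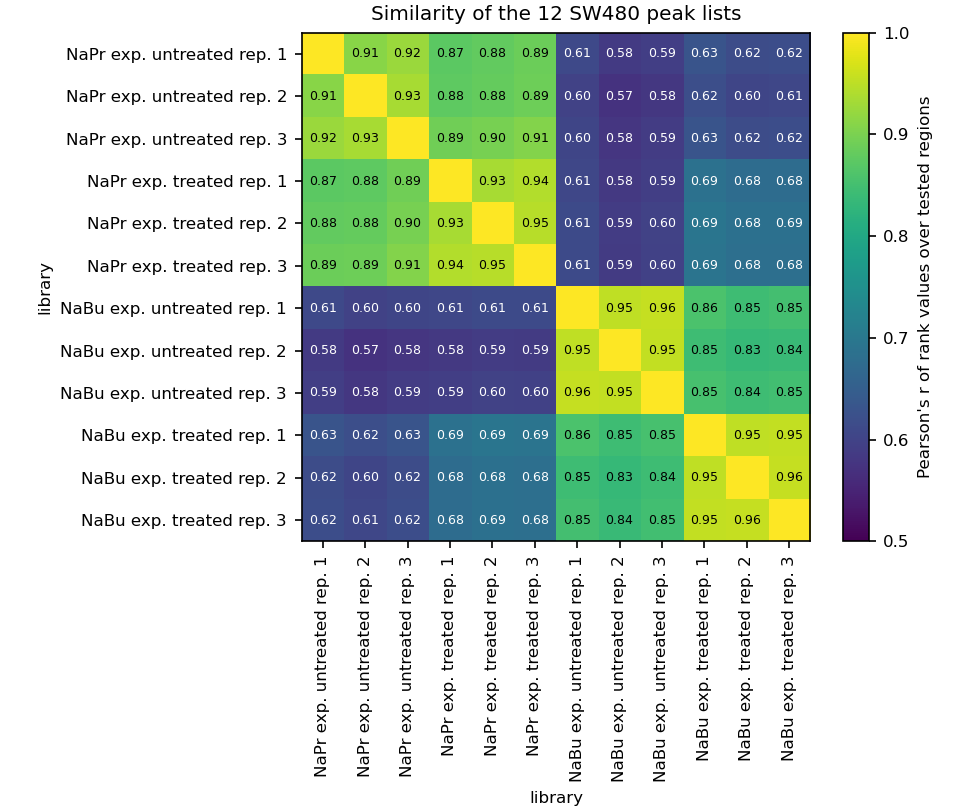
Pearson's r between the ranks of each pair of the 12 SW480 libraries (both axes, 6 untreated and 6 treated) over the 125956 tested regions, as colour and printed value. Pairs of untreated libraries of the same experiment lie between 0.911 and 0.956 and pairs of different experiments between 0.573 and 0.609.

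The lists were close in length but not in the tags at a summit, a number that mixes depth with enrichment. Each held 299022 to 299460 summit lines, just under the 300000 at which the authors' numbering ended. The median number of tags at a summit, recovered from the deposited fold and p, was 20, 37 and 42 in the NaPr controls and 73, 49 and 57 in the NaBu controls. The median fold enrichment was 4.83, 4.56 and 5.36 against 6.39, 5.99 and 6.02. The lowest background at a summit was 0.936, 2.35 and 2.02 tags against 3.03, 2.11 and 2.49, with overlapping groups. The weakest listed peak had a −log10 p of 3.37, 4.98 and 5.33 in the NaPr controls and 9.38, 7.25 and 8.0 in the NaBu controls. The NaPr lists therefore reached weaker peaks, and NaPr replicate 1 had the fewest tags and the lowest threshold. The median GC content of the windows was 53.5%, 54.5% and 54.5% in the NaPr controls and 52.0%, 51.5% and 51.5% in the NaBu controls (difference −2.5 percentage points, two-sided exact permutation test, p = 0.1, the smallest possible). The part of depth, of enrichment and of base composition in the differences that follow was not tested.

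Of the 125956 regions with a rank above 0 in at least 2 of the 6 libraries, 68164 differed (limma, two-sided, Benjamini-Hochberg adjusted p under 0.05), which is 54.1%. The NaBu controls ranked higher in 35107 of them (27.9% of those tested) and lower in 33057 (26.2%). A region with a rank in 1 group alone entered the test through that group and could only be called in its favour. The same holds for the promoters tested below. When regions were ranked by fold enrichment in place of −log10 p, 30243 were higher and 29590 lower, and 49855 of the 68164 were called in the same direction, 73.1% of them, whereas 664 were called in the opposite one. Without NaPr replicate 1, the library with the fewest tags at a summit, the counts were 34164 higher and 35332 lower. The share called depends on the filter. It was 34.6% of 181285 regions with a rank in at least 1 library and 67.0% of 104466 with a rank in at least 3. Regions with a peak in all 3 libraries of 1 group and in none of the other numbered 11584 for the NaPr controls and 19977 for the NaBu controls. At a common −log10 p limit of 9.38, the threshold of the list that started highest, they numbered 2441 and 26147.

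The treated libraries of the same experiments, which shared no sample with this fit, showed the same split. Of the 35107 regions called higher in the NaBu controls, 30539 (87.0%) also had a higher mean rank in NaBu-treated than in NaPr-treated SW480 cells. Of the 33057 called lower, 30787 (93.1%) were lower there. Among the 57792 regions not called, 38.7% were higher and 46.3% lower. The 2 compounds differ, so this is a description of the libraries and not a test.

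Some of the strongest distal regions of one group were absent from the top of the other. The region in the intron of SUGCT, a mitochondrial CoA transferase gene (chr7:40644324-40645805), ranked 0 in all 3 NaPr controls and 99.7, 99.8 and 99.8 in the NaBu controls (means 0 and 99.8). It ranked 0 on average in NaPr-treated and 88.7 in NaBu-treated cells. The treated libraries sided with the controls of their own experiment. The regions named here were chosen as the called ones with the largest change whose groups did not overlap, most have a rank in 1 group alone, and their differences are therefore given without a test.

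A region in an exon of ABHD17C, 28892 bp from the start of CEMIP, a hyaluronan-degrading protein (chr15:80749348-80750451), ranked 0 in the NaPr controls and 99.7, 99.5 and 99.2 in the NaBu controls. A region at the noncoding CASC19 and PCAT1, in the gene desert upstream of MYC on chromosome 8 (chr8:127218653-127219553), ranked 0 in the NaPr controls and 99.2, 99.6 and 99.3 in the NaBu controls. The other 5 largest gains lay in LINC01517 on chromosome 10, 236022 bp from the start of BAMBI, in an intron of SOX5 on chromosome 12, between genes on chromosome 4, in a noncoding exon on chromosome 19 and in an exon of ARFGAP1 on chromosome 20. Each of these 5 ranked 0 in all NaPr controls and between 96.7 and 98.5 in the NaBu controls.

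The largest losses began from lower ranks. The intergenic region 61123 bp from ADRA2C, an adrenergic receptor gene (chr4:3827508-3828208), ranked 90.2, 88.1 and 90.5 in the NaPr controls and 0 in all 3 NaBu controls. A region in an exon of ANO8 on chromosome 19 ranked 88.8, 93.3 and 86.4 in the NaPr controls and 0 in the NaBu controls. Further losses of this size were at the start of CCDC116, in an exon of AP4M1, in an intron of MAD1L1, in an intron near STAM2 and between genes near TH and NLGN4X.

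Distal regions with the motifs of several gut factors, and of some other factors, included more gains and fewer losses than distal regions as a whole. Of 728 tested distal regions with an HNF4 motif (CAAAGTCCA), 425 (58.4%) ranked higher in the NaBu controls and 61 (8.38%) lower, against 28.1% and 25.7% of all 103606 distal regions. The FOX motif (TGTTTAC) was held by 4029 distal regions, of which 43.9% were higher and 15.1% lower. For TCF/LEF (ATCAAAG, 5720 regions) these shares were 40.8% and 20.8%, and for CDX (TTTATNG, 8146 regions) 38.2% and 18.3%. The CRE motif (TGACGTCA), which factors responding to cyclic AMP and stress bind, was held by 239 regions, of which 41.0% were higher and 19.7% lower (29.1% and 19.4% by fold enrichment, beside 26.5% and 21.7% of all distal regions). For RUNX (ACCACA, 23759 regions) the shares were 32.7% and 25.0%.

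The windows printed above for HNF4 and FOX were chosen for their large gain, so they are examples and no support for these shares. The HNF4 region in KCTD15, 2047 bp from a start of that gene, ranked 0 in all NaPr controls and 94.7, 94.8 and 94.9 in the NaBu controls. The FOX region lay 910733 bp from the nearest start, that of ADGRL3, and ranked 0 in all NaPr controls and 97.8, 97.6 and 97.7 in the NaBu controls. In treated cells the HNF4 region averaged 0 in the NaPr experiment and 89.5 in the NaBu experiment, and the FOX region 1.94 and 97.3.

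Regions with TEAD, NF-kB and KLF motifs held more losses than gains. TEAD proteins carry the output of the Hippo pathway, and NF-kB that of inflammatory signals. Of 5871 distal regions with a TEAD motif (ACATTCC), 26.5% were higher and 31.1% lower in the NaBu controls. Of 1087 with an NF-kB motif (GGGANTTCC), 19.8% were higher and 36.5% lower. The VAV2 window printed for NF-kB ranked 75.8, 75.0 and 80.0 in the NaPr controls and 0 in all 3 NaBu controls. For the CCACGCCC motif of KLF factors (1920 regions) the shares were 24.3% and 33.4%. These 3 also held fewer higher than lower calls under ranking by fold enrichment. AP-1 (TGACTCA), a motif of stress and growth signals, was held by 17245 distal regions with 33.3% higher and 27.0% lower. The CTCF motif leaned to lower ranks, with 17.3% higher and 28.3% lower, but not under ranking by fold enrichment, with 20.4% and 18.8%.

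The strongest distal windows of each library were also searched alone. Among the 20000 strongest, the share with an HNF4 motif was 0.37%, 0.3% and 0.37% in the NaPr controls and 0.975%, 0.93% and 0.915% in the NaBu controls. The CDX share was 5.66%, 5.33% and 5.47% against 7.79%, 7.9% and 7.79%, and the AP-1 share 19.8%, 19.6% and 19.8% against 21.98%, 22.2% and 21.99%. The TEAD share fell from between 6.09% and 6.42% to between 5.69% and 5.77%, and the NF-kB share from between 1.29% and 1.38% to between 0.965% and 1.06%.

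For 13 of the 14 motifs the groups did not overlap among these 20000, the exception being the motif AGATAA, which GATA factors bind. Every one of the 13 gave p = 0.1 in the two-sided exact permutation test, the smallest the design allows (adjusted p = 0.108). The exception depends on the cut, since among the 50000 strongest distal windows the groups did not overlap for GATA but overlapped for CTCF, among others. Base composition moved with these shares, since the median GC content of called distal regions was 47.5% for those higher and 53.5% for those lower in the NaBu controls. Among distal windows of 40 to 50% GC alone, a restriction chosen after seeing the data, an HNF4 motif was in 1.54% of the regions called higher, 0.219% of those called lower and 0.542% of those not called. There the TEAD shares were 5.99%, 9.76% and 6.42%, the NF-kB shares 0.50%, 1.26% and 0.79%, and the FOX shares 6.26%, 3.54% and 4.43%. For FOX the contrast had been wider over all distal regions, with 6.07% of those called higher and 2.28% of those called lower. For several other motifs the contrast shrank or turned in these windows. The share of regions called higher and of those called lower was 0.802% and 0.608% for KLF, the reverse of its order over all distal regions. It was 22.7% and 22.1% for AP-1 and 12.5% and 10.7% for CDX, and for GATA it turned to 10.8% and 13.6%. For TCF/LEF it was 9.51% and 7.29% (8.01% and 4.48% over all distal regions) and for RUNX 29.3% and 27.8% (26.7% and 22.3%). For CRE it was 0.233% and 0.182% (0.336% and 0.177%) and for CTCF 1.42% and 1.45% (1.45% and 2.61%).

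**Figure D2:**
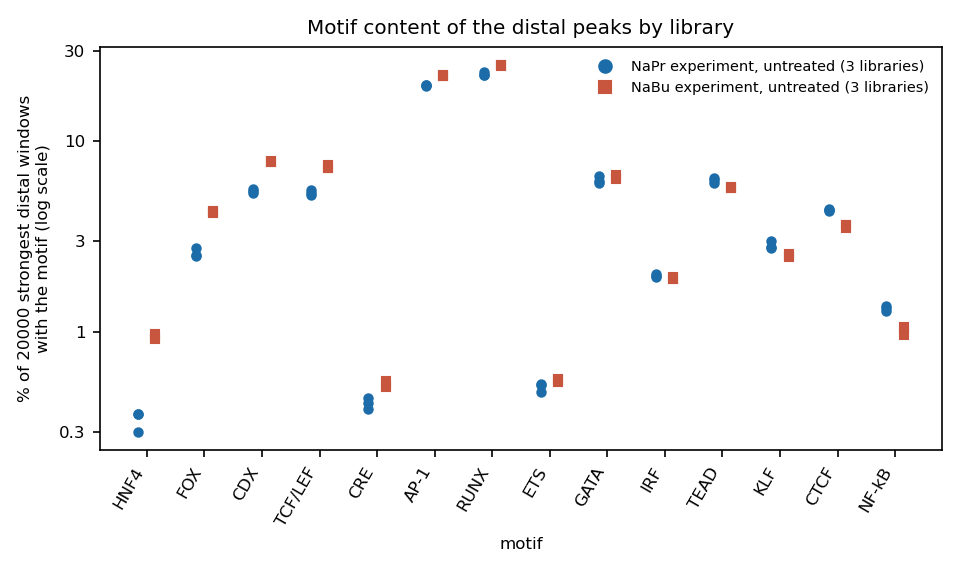
Share of the 20000 strongest distal windows of each untreated library that hold each of 14 motifs (log axis), with 1 point per library. HNF4 lies furthest apart, and GATA is the motif for which the groups overlap.

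The labelled cell type was read from marker promoters. Of 20 colon epithelium genes, 15 (75%) had a ranked promoter in all 6 libraries, close to the 72.2% of all 19663 genes, so the count does not set epithelium apart. CLDN3, a tight junction protein, ranked between 99.2 and 99.6 in the 6 libraries, and the epithelial keratin KRT8 between 95.9 and 98.9, with no call for either. KLF5, a factor of proliferating crypt cells, ranked 99.97 or above in the NaPr controls and 99.75, 99.79 and 99.72 in the NaBu controls. Its groups did not overlap, but so close to the ceiling of 100 there is little room for a call, and none was made. The promoters of the leukocyte genes PTPRC, SPI1, CD3E and CD79A, of the endothelial genes CDH5 and KDR, and of the hepatocyte gene ALB were at 0 in all 6. Other members of these lists were ranked in every library, 2 of 10 for blood, 1 of 6 for endothelium and 3 of 6 for hepatocytes, as were 5 of 10 fibroblast, 5 of 6 neuronal and 10 of 14 mesenchymal genes. Not every marker of the colon was present, since CDX1 was at 0 in all 6 libraries and KRT20 had a rank in only 1.

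Promoter ranks differed for 9108 of 15422 tested genes (59.1%), 3831 higher (24.8%) and 5277 lower (34.2%) in the NaBu controls. This split depends on the ranking measure. By fold enrichment 1435 promoters were higher and 6736 lower, so that the higher ones made up 17.6% of the calls in place of 42.1%, and the median change over all genes was −5.23 in place of −0.83. Of all promoters tested by fold enrichment 53% were called, 9.3% higher and 43.7% lower, and the counts of each gene list below are to be read against these shares. Of the 9108 calls, 5217 were made in the same direction by fold enrichment and 510 in the opposite one. A promoter call is therefore given with its change under fold ranking wherever that lost the call or turned the sign.

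Of the 18 tested colon epithelium genes, 8 ranked higher in the NaBu controls, 3 lower and 7 were not called (5 higher and 9 lower by fold enrichment). Their median change was 2.59, beside −0.83 over all genes tested. CDH17, the liver-intestine cadherin, ranked 0 in all 3 NaPr controls and 64.8, 76.1 and 61.5 in the NaBu controls (means 0 and 67.5), so that it entered the test through the NaBu controls alone. VIL1, the actin-bundling villin of the brush border, ranked 59.1, 67.5 and 63.2 against 95.2, 95.4 and 96.8 (difference 32.5, SE 2.47, limma adjusted p = 6e-05). The groups did not overlap for either gene. GRHL2, a factor of epithelial identity, ranked 20.98, 0 and 0 against 49.5, 51.4 and 50.5.

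CDX2, the homeobox factor of intestinal identity, moved the other way. It ranked 73.6, 78.4 and 72.0 in the NaPr controls and 58.5, 56.0 and 57.4 in the NaBu controls (difference −17.4, SE 2.80, limma adjusted p = 0.0012). EPCAM, an epithelial adhesion molecule, ranked 97.5, 97.6 and 96.7 against 99.8, 99.8 and 99.7, but its change by fold enrichment was −4.86, in the opposite direction. The call of KRT18, lower, was lost without NaPr replicate 2 or 3 or NaBu replicate 2 or 3 (limma adjusted p up to 0.11), and that of LGALS4, higher, without NaPr replicate 1 or 3 or NaBu replicate 1 or 3 (up to 0.12).

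Among 20 tested intestinal lineage factors, 9 were higher, 8 lower and 3 not called (2 and 10 by fold enrichment), with a median change of 1.52. HNF4A ranked 82.8, 77.6 and 74.1 against 92.7, 91.3 and 91.9, with a change of −8.31 by fold enrichment that was not called. FOXA1, a pioneer factor, ranked 50.4, 51.1 and 57.6 against 85.0, 76.4 and 79.3, and the call was lost by fold enrichment (adjusted p = 0.17).

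SOX9, a crypt progenitor factor, ranked 82.5, 82.2 and 80.2 against 93.0, 93.4 and 92.1, and the call held by fold enrichment. Of the 7 regions within 20 kb of the gene, 1 was higher and 4 were lower, so the promoter did not stand for its surroundings. Over all regions tested these shares were 27.9% and 26.2%. ASCL2, a WNT-dependent stem cell factor, ranked 70.2, 84.3 and 83.2 against 52.1, 54.0 and 44.7 (difference −29.0, SE 4.49, limma adjusted p = 0.00098). GATA6, KLF4, NR5A2 and NEUROG3 were called lower, although 5 of the 7 tested regions within 20 kb of GATA6 were higher and 2 lower. These promoter calls were lost without single libraries. The adjusted p of KLF4 and of NR5A2 rose to at most 0.061 and 0.08 without NaPr replicate 1 or 2, that of NEUROG3 to 0.053 without NaPr replicate 2 or NaBu replicate 1, and that of GATA6 to 0.12 without NaPr replicate 2 or 3 or NaBu replicate 1 or 2.

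Of 5 tested factors of the foregut and other gut regions, 2 were higher and 2 lower (0 and 2 by fold enrichment). PDX1, the factor of pancreas and duodenum, ranked between 86.3 and 90 in the NaPr controls and 81.1, 81.6 and 80.7 in the NaBu controls. NKX2-1, a lung and thyroid factor, ranked 51.1, 67.7 and 51.1 against 79.2, 75.5 and 79.8, and its call was lost by fold enrichment, as was that of PDX1. BARX1, PTF1A and TP63 were at 0 in all 6 libraries.

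**Figure D3:**
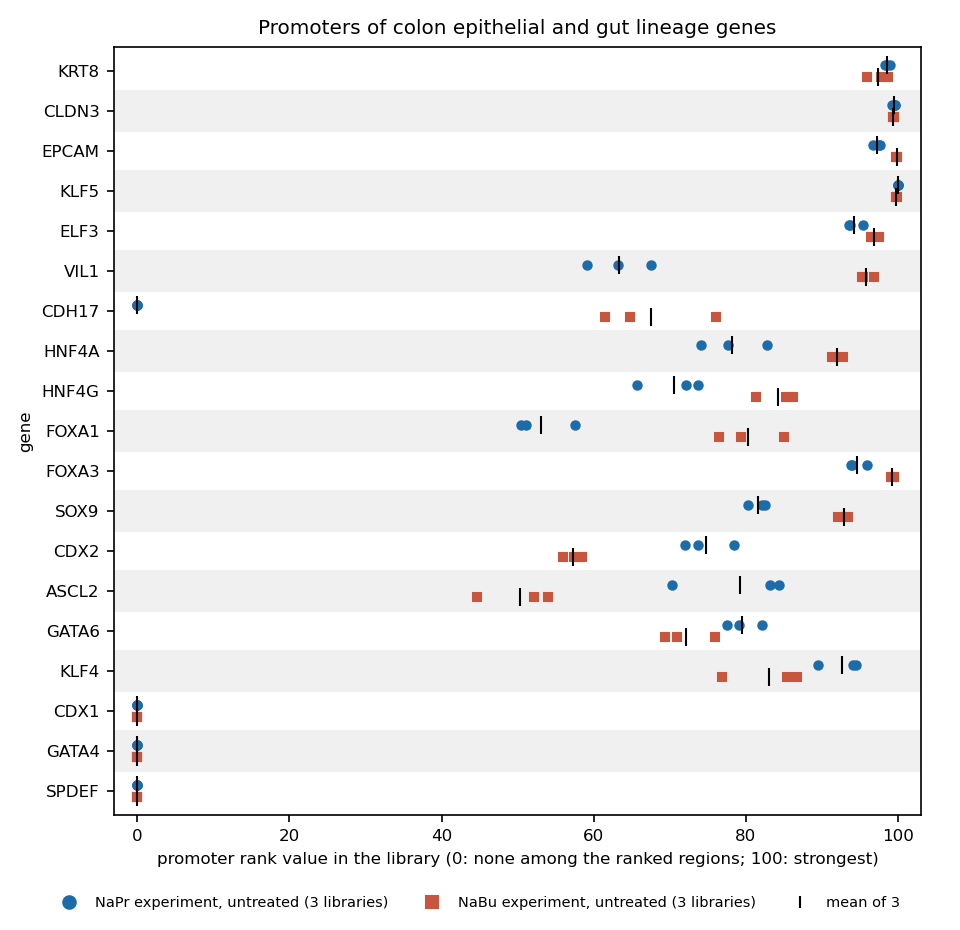
Promoter rank (0 to 100, horizontal) of 19 colon epithelial and gut lineage genes in each of the 6 untreated libraries, with black ticks at the mean of 3. CDH17, VIL1 and FOXA1 lie further right in the NaBu controls, CDX2 and ASCL2 further left, and CDX1, GATA4 and SPDEF are at 0 in all 6 (by fold enrichment the sign of EPCAM, ELF3, HNF4A, HNF4G and FOXA3 turns).

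Of 19 tested WNT target and stem cell genes, 3 ranked higher in the NaBu controls, 9 lower and 7 were not called, beside 24.8% higher and 34.2% lower of all promoters. By fold enrichment 1 was higher and 11 lower. Their median change was −4.68. AXIN2, a feedback inhibitor of WNT signaling, ranked 83.5, 82.7 and 86.8 in the NaPr controls and 71.7, 62.9 and 63.5 in the NaBu controls (difference −18.3, SE 2.94, limma adjusted p = 0.0012). NOTUM, a secreted WNT inhibitor, ranked 63.1, 63.6 and 72.4 against 45.9, 49.6 and 33.7, and RNF43, which removes WNT receptors, ranked 92.7, 96.0 and 95.6 against 87.1, 86.5 and 88.4. All 3 lie on chromosome 17, where 13.9% of tested regions were higher and 43.3% lower. Within 20 kb of AXIN2, 8 of 26 tested regions were higher and 11 lower. Around NOTUM 1 of 9 was higher and 3 were lower, and around RNF43 11 of 29 were higher and 9 lower.

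Among genes on other chromosomes, the ephrin receptor EPHB2 (difference −21.8) and the growth factor receptor regulator LRIG1 (difference −4.68) were also lower. CCND1, the cyclin of G1 progression, was higher, at 55.7, 50.5 and 44.4 in the NaPr controls and 81.3, 81.4 and 82.6 in the NaBu controls (difference 31.6, SE 3.32, limma adjusted p = 0.00018). Of the 16 tested regions within 20 kb of CCND1, 9 were lower and 3 higher, beside 26.2% lower and 27.9% higher of all regions. The LGR5 promoter ranked 73.7, 76.2 and 72.2 against 85.3, 87.7 and 75.1 and was not called. The calls of DKK1, higher, and TNFRSF19, lower, were lost when 1 library was left out, that of DKK1 without NaBu replicate 2 or 3 and that of TNFRSF19 without any library but NaBu replicate 2.

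Of 14 mesenchymal genes 11 were tested, of which 7 were lower in the NaBu controls, 1 higher and 3 not called, beside 34.2% lower and 24.8% higher of all promoters. By fold enrichment 8 were lower and 0 higher, beside 43.7% and 9.3%. The median change was −8.59. SPARC, a secreted matrix glycoprotein, ranked 52.2, 57.6 and 60.4 in the NaPr controls and 0 in all 3 NaBu controls (means 56.7 and 0). It entered the test through the NaPr controls alone and could only be called lower. Of the 13 tested regions within 20 kb of SPARC, 10 were lower and 0 higher, beside 26.2% lower and 27.9% higher of all regions. The surroundings of other members went both ways. Around SNAI2, 5 of 6 tested regions were higher and 0 lower, and around LOXL2 1 of 21 was higher and 11 were lower. Fibronectin (FN1) ranked 81.2, 84.2 and 85.0 against 64.3, 62.0 and 68.2. The intermediate filament gene VIM ranked 87.9, 87.5 and 86.2 against 81.4, 76.5 and 77.9. AXL, a receptor tyrosine kinase, was the member called higher, though not by fold enrichment (adjusted p = 0.93). ZEB2, a repressor of epithelial genes, and the cadherin gene CDH2 were at 0 in all 6 libraries.

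Of 18 genes of differentiated enterocytes and secretory cells, 6 (FABP1, FABP2, SI, CA1, AQP8 and CLCA1) were at 0 in all 6 libraries. Of the 12 tested, 3 were higher, 2 lower and 7 not called, with a median change of −2.17. TFF3, the trefoil peptide of goblet cells (chr21:42311667-42315409), ranked 0 in all NaPr controls and 89.1, 86.2 and 88.7 in the NaBu controls (means 0 and 88.0). It entered the test through the NaBu controls alone and could only be called higher. Of the 8 tested regions within 20 kb of TFF3, 6 were higher and 0 lower, beside 27.9% and 26.2% of all regions. This count includes the region of the promoter itself. In treated cells TFF3 ranked 0 in all 3 NaPr libraries and 51.0, 47.5 and 48.9 in the NaBu libraries. Guanylin (GUCA2A) ranked 79.8, 86.0 and 90.4 against 96.3, 95.8 and 96.2. CHGA, the granin of enteroendocrine cells, was lower, at 84.2, 79.8 and 80.0 against 55.8, 52.6 and 52.7. The mucin gene MUC2 ranked 0, 36.6 and 8.80 against 17.9, 17.6 and 0, with overlapping groups and no call.

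The 20 promoters with the largest called changes ranked high in one group and at or near 0 in the other, where 0 means only outside the strongest 99909 regions. They were chosen for this change, so it is described without a test. The 10 largest gains were SSTR1, MACC1, RNF186, TFF3, SLC25A21, PRR15L, POF1B, PLEKHG7, NKX2-5 and KLRC2. SSTR1, a somatostatin receptor (chr14:38207904-38213067), ranked 0 in all NaPr controls and 96.6, 98.1 and 96.7 in the NaBu controls (means 0 and 97.2). MACC1, a regulator of the MET receptor known for its link to colon cancer metastasis (chr7:20134655-20217404), ranked 0, 0 and 16.4 against 97.9, 99.3 and 98.8. RNF186, a ubiquitin ligase of the colonic epithelium, ranked 0 in all NaPr controls and 90.9, 94.6 and 92.9 in the NaBu controls. SSTR1 and SLC25A21 lie on chromosome 14, where 44.6% of tested regions were higher and 13.1% lower.

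The 10 largest losses were CCDC116, AFF3, KCNK3, GPR37L1, MIA, TEPP, RARRES1, CHD9NB, SAA2-SAA4 and TMEM54. AFF3, a subunit of transcription elongation complexes, ranked 90.5, 82.3 and 87.4 in the NaPr controls and 1.75, 0 and 7.75 in the NaBu controls (means 86.7 and 3.16). KCNK3, a potassium channel, ranked 79.8, 79.3 and 82.2 against 0 in all 3. RARRES1, a retinoic acid response gene, ranked 76.2, 82.1 and 81.7 against 0, 0 and 15.7.

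**Figure D4:**
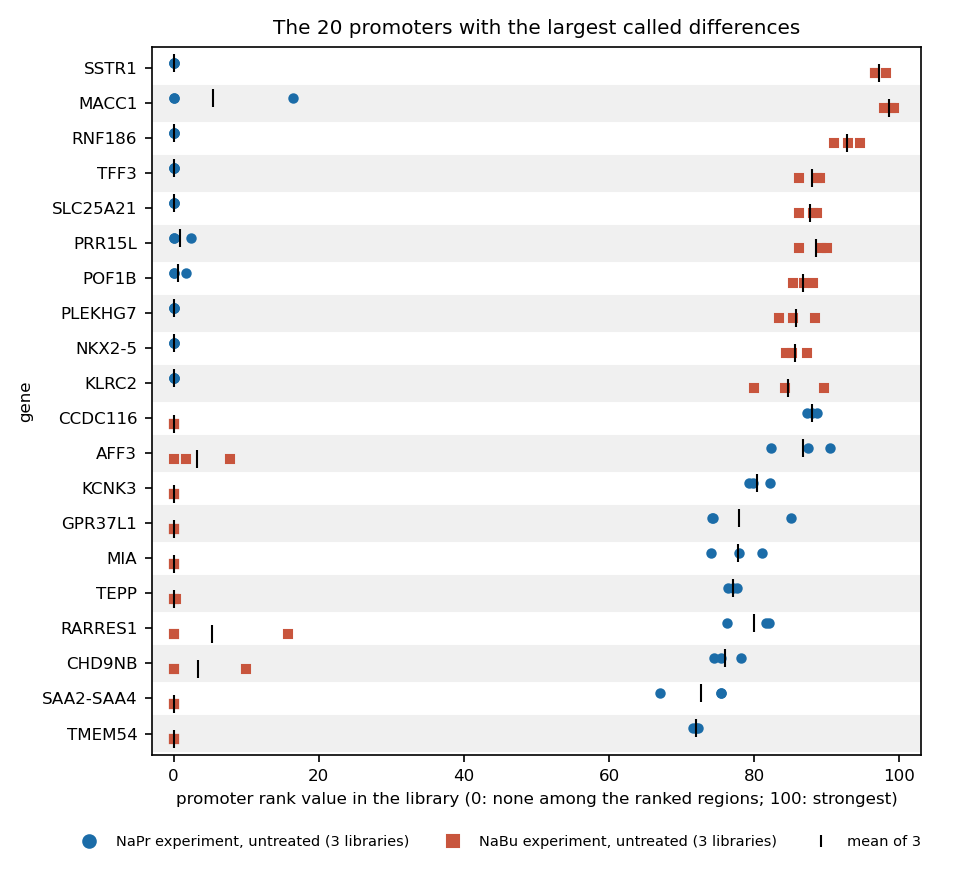
Promoter rank (0 to 100, horizontal) of the 20 genes with the largest called differences in each of the 6 untreated libraries, with black ticks at the mean of 3. The upper 10 rank high in the NaBu controls and the lower 10 in the NaPr controls, and the values that chose them are those shown.

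The remaining lists held calls in both directions. Of 14 genes of amino acid and endoplasmic reticulum stress, 8 were higher and 3 lower (2 and 5 by fold enrichment), with a median change of 2.54. Among them TRIB3, a pseudokinase induced by ATF4, ranked 92.2, 89.3 and 90.8 in the NaPr controls and 98.3, 99.0 and 99.4 in the NaBu controls, and its call held by fold enrichment. Of 25 serum-responsive and AP-1 genes, 5 were higher and 9 lower (0 and 20 by fold enrichment), with a median change of −1.34. JUND, an AP-1 subunit, ranked 88.7, 94.4 and 92.6 against 69.8, 68.0 and 72.4 (difference −21.8, SE 2.25, limma adjusted p = 0.00017). Of 12 YAP and TEAD targets, 3 were higher and 5 lower (0 and 5 by fold enrichment), with a median change of −3.04. NT5E, the ectonucleotidase CD73, ranked 98.6, 97.7 and 96.5 against 80.1, 77.9 and 78.7.

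Of 15 tested hypoxia and glycolysis genes, 3 were higher and 6 lower (0 and 12 by fold enrichment), and of 13 NRF2 and metal response genes 4 and 5 (1 and 6). Of 12 cholesterol synthesis genes 1 was higher and 3 were lower (0 and 8 by fold enrichment), and of 16 interferon and antigen presentation genes 6 and 7 (2 and 1). Over all promoters the shares were 24.8% and 34.2%, and by fold enrichment 9.3% and 43.7%. The medians of these 4 lists lay between −0.94 and 0.144. Among the latter IFIT1, an interferon-induced RNA sensor, ranked 32.1, 51.4 and 55.9 against 66.6, 75.9 and 77.2, and OAS1, an antiviral synthetase, ranked 64.4, 68.8 and 72.0 against 58.3, 42.8 and 48.3. FASN, the fatty acid synthase on chromosome 17, ranked 93.2, 94.6 and 92.1 against 69.7, 72.5 and 67.6. Of 16 cell cycle genes, 2 were higher, 4 lower and 10 not called. CCNE1, the cyclin that drives entry into S phase, ranked 87.4, 93.0 and 89.0 against 69.6, 57.3 and 48.8, whereas the proliferation marker MKI67 ranked between 87.3 and 93.9 in all 6 with no call.

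Markers of other cell types were measured beside these genes. Of 10 fibroblast genes, 6 were tested and 2 were higher, with a summed rank of 333.3 to 350.7 in the NaPr controls and 390.7 to 405.7 in the NaBu controls. LUM, a proteoglycan, ranked 0 in all NaPr controls and 66.7, 61.8 and 66.1 in the NaBu controls, while COL3A1 and TWIST2 were at 0 in all 6. LUM therefore entered the test through the NaBu controls alone and could only be called higher. Of 10 blood genes, 4 were tested and 3 were lower, with a summed rank of 214.8 to 244.6 against 121.1 to 126.2. In the NaBu controls 8 of the 10 were at 0 and in the NaPr controls 5. Tested members at 0 in the NaBu controls could only be called lower, so this count is no tested shift of the list. CD34 ranked 47.3, 53.6 and 41.2 against 0 in all 3, so that it entered the test through the NaPr controls alone and could only be called lower.

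Of 6 endothelial genes 2 were tested, PECAM1 being higher and ERG lower, with a summed rank of 63.9 to 96.7 against 85.6 to 108.9. The surroundings leaned the other way. Within 20 kb of PECAM1 1 of 12 tested regions was higher and 4 were lower, and around ERG 3 of 9 were higher and 1 lower. Over all regions 27.9% were higher and 26.2% lower. Of 6 hepatocyte genes 4 were tested, 1 higher and 2 lower, with a summed rank of 215.0 to 241.8 against 235.6 to 247.3. Of 6 neuronal genes 2 were higher and 3 lower, with a summed rank of 390.9 to 403.1 against 395.0 to 426.4, and of 5 muscle genes 3 were tested and 2 were lower, with a summed rank of 81.1 to 102.7 against 40.2 to 46.8. The part of other cells in any of these differences was not tested.

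The local background, the number of tags MACS2 expected at a summit from its neighbourhood, was not spread over the chromosomes in the same way in both groups. Relative to the median of the whole library, it was 1.49, 1.48 and 1.49 on chromosome 17 in the NaPr controls and 1.19, 1.18 and 1.18 in the NaBu controls. On chromosome 14 it was 0.898, 0.841 and 0.883 against 1.11, 1.10 and 1.07, and on chromosome 18 it was 0.642, 0.574 and 0.577 against 0.723, 0.732 and 0.712. On chromosome 18, 44.9% of tested regions were higher and 13.3% lower.

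The groups did not overlap for 14 of 23 chromosomes, 9 with the NaBu controls higher and 5 lower. On 10 of the 14 the balance of calls leaned the way of the background, and on 4 the other way. Chromosome 4 had 38.3% of its regions higher and 17.7% lower, although its background was 0.880, 0.830 and 0.809 in the NaPr controls and 0.775, 0.789 and 0.747 in the NaBu controls. On chromosomes 13, 19 and 20 the background was higher in the NaBu controls, with 26.5%, 25.7% and 21.2% of regions higher and 27.5%, 28.9% and 30.5% lower. These counts depend on the summits used. At distal summits alone the groups overlapped on chromosomes 4, 20 and 22 (differences 0.00154, 0.00341 and −0.0295). There they no longer overlapped on chromosomes 2, 6, 8, 12 and 21. Each of the 14 gave p = 0.1 in the two-sided exact permutation test, the smallest possible, and none passed the correction over chromosomes (lowest adjusted p = 0.164). The background mixes copy number, depth and the reads of nearby peaks, and their parts were not tested.

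**Figure D5:**
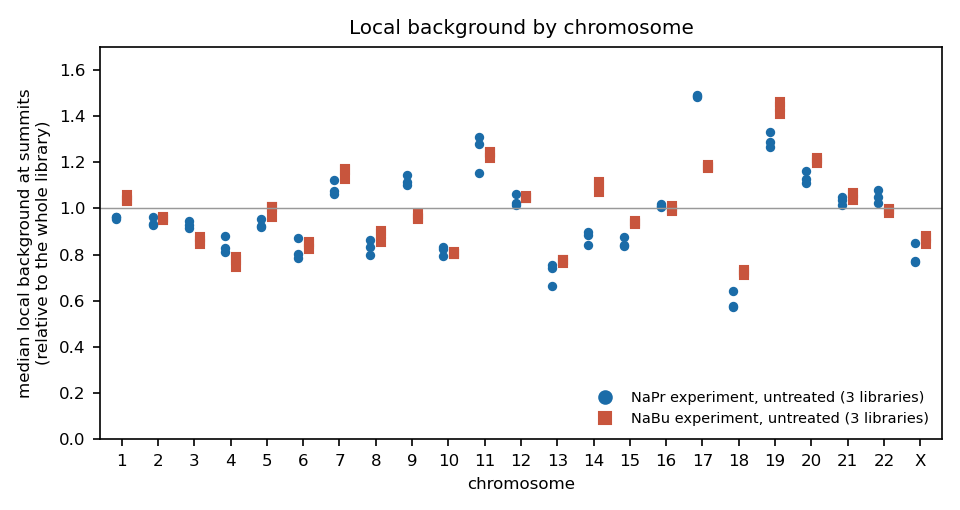
Median local background at the summits of each chromosome, relative to the median over all summits of the library, with 1 point per untreated library. Chromosome 17 is higher in the NaPr controls and chromosomes 14 and 18 are higher in the NaBu controls.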

How the data were processed

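ATAC-seq peak lists of 6 untreated SW480 libraries were analysed, with the 6 treated SW480 lists as a description only. The 8 mouse lists were not used. Groups came from the labels. Per the submitters' processing notes the reads were handled with bcl2fastq 2.17.1 and cutadapt 1.9.1, aligned with Bowtie2 2.3.1 to hg38, and peaks were called in each library separately with MACS2 2.1.0. The deposited lists give for each summit the fold enrichment over local background (a ratio), the −log10 p-value and the −log10 q-value. They hold no read counts, so the read-based tool that the authors used for differential accessibility was not run. The number of tags and the background at each summit were recovered from the deposited fold and p.

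Intervals of the 6 lists that shared at least 1 bp were merged. Regions were ranked in each library by their highest −log10 p among the 99909 strongest. Ranks were tested with limma 3.58.1 (R 4.3.3, empirical Bayes with trend, two-sided, Benjamini-Hochberg over all regions or all genes, threshold 0.05) if above 0 in at least 2 of 6 libraries. Promoters were 1 kb on either side of 78566 protein-coding transcript starts (GENCODE 44). Single values per library were compared by exact permutation of 3 against 3 (SciPy 1.17.1), whose smallest p is 0.1. Motifs were searched in 200 bp around the highest summit. Copies were found with BLAST 2.17.0, and figures drawn with matplotlib 3.10.9. The programs were tested on simulated data.

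Named items were the 15 strongest regions near starts and the 15 strongest distal ones, the 8 called regions and the 10 called promoters with the largest change each way whose groups did not overlap, and the genes of the lists. Which list members the text names was decided after their values were seen. The members and lists were chosen with earlier results of these data known. Alternatives were ranking by fold enrichment, each list's own length, the 50000 strongest regions, other filters, summit windows, 500 bp promoters, the replicate number as a block, and each library left out in turn. A few list members, 1 region and 1 motif are not reported here.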

Additional observations from a re-analysis of the deposited data

How the results depend on the processing

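The culture, the library preparation and the sequencing run cannot be told apart between the 2 control groups, which also differed in the tags at a summit. The lists hold ranks of significance, which grow with depth, so the counts measure a difference of order and not of accessibility itself. Promoter directions depend on the ranking measure most. By fold enrichment 1435 promoters were higher in the NaBu controls, and the change turned sign for EPCAM (−4.86), CDH1 (−12.88), ESRP1 (−11.96), ELF3 (−16.83), HNF4A (−8.31), HNF4G (−1.92), FOXA3 (−3.2), ATOH1 (−9.4), PROX1 (−31.47), MYB (−1.33), SOX2 (−13.59), ONECUT2 (−8.65), LGR5 (−18.74), ZNRF3 (−6.18), TCF7 (0.741), DKK1 (−12.88), SNAI2 (−25.97), STMN2 (−4.27), IER2 (−3.07), AJUBA (−17.07), ATF4 (−0.621), TXNRD1 (−13.55), SLC7A11 (−4.55), FDFT1 (−4.85) and CDK1 (−0.205). With promoters of 500 bp it turned for the promoter of HES1 (24.61), the promoter of MYB (−19.25) and the promoter of IER3 (7.52). The cause of these turns was not tested. With the 50000 strongest regions, where 63580 regions were tested, 39349 were called, 19084 higher and 20265 lower. Regions with a peak in 1 group only then numbered 7434 (NaPr) and 8917 (NaBu), and at the common −log10 p limit 2441 for the NaPr controls. The share of intervals within 1 kb of a start was 2.50 percentage points higher in the NaBu controls (p = 0.1, two-sided exact permutation test) but differed by −0.497 points among the 50000 strongest (p = 0.3, exact). At distal summits the difference of the chromosome 4 background turned to 0.00154, and the groups overlapped on chromosomes 4, 20 and 22. Leaving out each library in turn gave 61608 to 69496 called regions (32534 to 34164 higher, 28763 to 35332 lower), 7816 to 8588 called promoters (3126 to 3632 higher, 4503 to 5113 lower), 12562 to 16467 and 21012 to 23890 regions with a peak in the NaPr or the NaBu controls only, and a Jaccard difference of 0.187 to 0.259. The 16 regions and 20 promoters with the largest changes kept their direction and call under each alternative run for them, which their choice by size of change largely fixes and which is no sign of stability.

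Libraries with the same replicate number did not deviate together (r of −0.0103, −0.00497 and 0.00484 over regions), so the number names a library and pairs none. With the number as a replicate block, 67967 regions (34617 higher, 33350 lower) and 8658 promoters (3608 higher, 5050 lower) were called. The calls of KRT18, LGALS4, GATA6, TNFRSF19, ITGA5, STMN2 and ACTA1 were lost with the block, and FOXA2 and LGR5 were then called higher.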

Other observations

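The local background was also read in 514 bins of 5 Mb with at least 100 summits in every library, a division chosen after seeing the data. The groups did not overlap in 332 bins, 237 with the NaBu controls higher and 95 lower. In 50 of them the log2 difference was 0.5 or more, and in 12 it was −0.5 or less. The bin with the largest difference, at 45 to 50 Mb of chromosome 14, had a relative background of 0.72, 0.56 and 0.62 in the NaPr controls and 1.51, 1.56 and 1.45 in the NaBu controls, and 62.3% of its 61 tested regions ranked higher in the NaBu controls. The bin at 105 to 110 Mb of chromosome 11 had a background 2.24 times as high in the NaBu controls, with 18.3% of its 93 tested regions higher and 15.1% lower. The bin at 110 to 115 Mb of chromosome 4 had one 0.49 times as high, with 36.1% of its 97 regions higher and 12.4% lower. Across bins the log2 difference had r = 0.295 with the share of regions called higher and r = −0.351 with the share called lower, a description over bins that share libraries.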
